A study of Mus musculus with 8 samples.

Results

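Gastric pit cell genes were followed in sorted epithelium of the mouse small intestine: Gkn1, Gkn2, Tff1, Muc5ac, Ctse, Cldn18, Psca, Vsig1, Anxa10 and Sox2, which are 10 of the 25239 genes in the deposited count table. They were taken by symbol, and they had been picked because they were lower in CD1d-KO than in WT in these same samples, so their differences between the genotypes are given as a description with no test. The study sequenced RNA from 8 samples of epithelial cells of the proximal small intestine, 4 from CD1d-KO mice and 4 from WT mice, to ask how the epithelial transcriptome changes when CD1d, and with it natural killer T (NKT) cells, is missing. CD1d-KO mice were labelled CD1d1/2 KO and WT mice C57BL/6Jax. Neither genotype was treated. The paper describes mice of both sexes at a young adult age, matched for age and sex between genotypes and not littermates. It describes cells sorted as EpCAM+ CD45- CD31- Ter119- from a crypt-enriched preparation of the duodenum. The samples came from 2 experiments, and the labels do not say which sample came from which.

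Pit cells, also called foveolar cells, line the surface and the pits of the stomach. They secrete the mucin Muc5ac, the trefoil peptide Tff1 and the gastrokines, which together coat and protect the gastric surface. The absorptive epithelium of the small intestine is instead specified by Cdx2 and uses Muc2 and Tff3, made by goblet cells, as its main secreted mucin and trefoil peptide. Sox2 is a transcription factor of the foregut and stomach. Pit cells of the stomach border the duodenum at the pylorus, and in the proximal duodenum Brunner's glands make Muc6 and Tff2, which are also products of gastric mucous neck cells.

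The targeted gene Cd1d1 had 8, 3, 5 and 0 counts in CD1d-KO samples 1 to 4 and 81, 70, 94 and 50 in WT samples 1 to 4, low where the label says it was deleted (log2 fold change -4.34 ± 0.45 SE, DESeq2 adjusted p = 1.09e-18, edgeR adjusted p = 0.000942). Counts from Y-linked genes were 6235 and 7293 in CD1d-KO 1 and 2 and at most 1 in each of the other samples. Sex, as read from these counts, was thus not balanced between the genotypes. Total counts ranged from 23610266 to 31629435, so 3 counts, the most that a count of 0 allows, corresponded to 0.0948 to 0.127 CPM, the usual scaling of a count by the total of its sample. CD1d-KO 4 stood apart from the other CD1d-KO samples in the members, and WT 3 and WT 4 from the other WT samples.

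The gastrokine genes Gkn1, Gkn2 and Gkn3 lie within 43.3 kb of chromosome 6, and the samples differed in the members Gkn1 and Gkn2 but had reads of Gkn3 throughout. For that reason the 250 bases before each gene's start are shown from RefSeq (GRCm38.p6, the assembly also called mm10), 5′ to 3′ on the gene's strand. The windows are chr6:87350916-87351165 on the minus strand for Gkn1, chr6:87373115-87373364 on the plus strand for Gkn2 and chr6:87388936-87389185 on the minus strand for Gkn3. Capitals mark AGATAA, a form of the GATA motif, and TATAAA, the TATA box, on either strand. Other forms of the GATA motif were not searched. One of them, TGATAA, stands unmarked on one or the other strand in each of these windows, including that of Gkn3.
Gkn1: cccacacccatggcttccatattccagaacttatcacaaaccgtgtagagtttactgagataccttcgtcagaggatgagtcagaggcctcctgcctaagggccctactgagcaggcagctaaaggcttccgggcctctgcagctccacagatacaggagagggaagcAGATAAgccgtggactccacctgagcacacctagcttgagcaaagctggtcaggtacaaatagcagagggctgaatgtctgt
Gkn2: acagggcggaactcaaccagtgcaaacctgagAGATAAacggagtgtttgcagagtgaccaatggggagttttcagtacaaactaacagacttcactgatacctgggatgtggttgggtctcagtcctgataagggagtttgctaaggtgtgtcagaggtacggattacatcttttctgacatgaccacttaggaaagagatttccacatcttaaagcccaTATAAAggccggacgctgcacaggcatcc
Gkn3: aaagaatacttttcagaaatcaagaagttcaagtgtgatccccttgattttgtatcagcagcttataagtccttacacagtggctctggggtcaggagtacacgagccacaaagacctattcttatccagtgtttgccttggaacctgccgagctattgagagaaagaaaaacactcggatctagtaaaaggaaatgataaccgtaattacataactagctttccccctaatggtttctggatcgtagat

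AGATAA began 82 bases before the start of Gkn1 and 218 bases before that of Gkn2, whose TATAAA began 29 bases before the start. RefSeq promoter windows, which run 250 bases before to 50 after a start, were held for 6 of the members as 7 windows, since Cldn18 has a pair of them. Windows for Tff1, Muc5ac, Ctse and Psca were not used. On both strands, AGATAA was present in 3 of the 7 member windows (Gkn1, Gkn2 and 1 of Cldn18) and in 11.2% of all 32817 windows. TATAAA was present in 2 (Gkn2 and Anxa10) and in 13.6% of all. The SOX core ATTGTT was present in 1 (Vsig1) and in 10.7% of all. The FOX motif TGTTTAC and the CDX motif CCATAAA were in 0 of the 7, against 3.65% and 2.75% of all windows. The matches in the member windows did not overlap one another, and a match describes the letters only.

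The members were read at or near 0 in CD1d-KO 1, 2 and 3, at a low level in CD1d-KO 4, and at a higher level in WT, most of all in WT 3. Summed over the 10 genes, 9, 5, 8 and 470 counts were found in CD1d-KO samples 1 to 4 and 1107, 1147, 11825 and 4994 in WT samples 1 to 4. In CPM this was 0.285, 0.166, 0.269 and 15.5 for CD1d-KO samples 1 to 4. For WT samples 1 to 4 it was 38.6, 41.6, 397 and 212. The exact 95% binomial interval, which covers counting error only, ran from 14.2 to 17 CPM for CD1d-KO 4 and from 36.4 to 40.9 for WT 1, the lowest WT sample. The summed values did not overlap between the genotypes, while WT itself spanned about an order of magnitude. Since the members had been picked as lower in CD1d-KO, this separation is a description only. No single member had more than 4 counts in any of CD1d-KO 1 to 3. In bulk RNA, fewer cells that carry these transcripts and less of the transcripts per cell cannot be told apart.

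**Figure D1:**
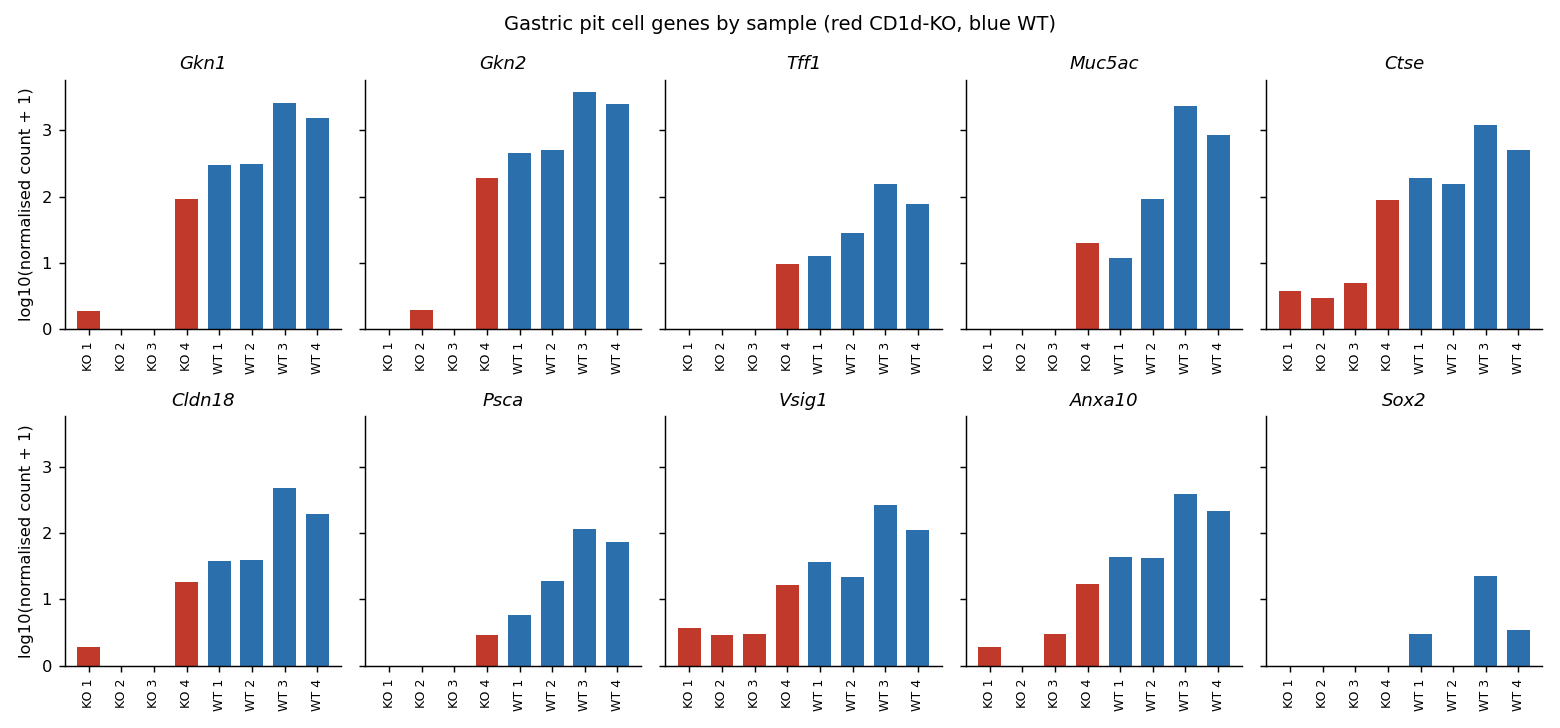
Each bar is the DESeq2 normalised count of 1 gene in 1 sample, as log10 of the count plus 1, for the 4 CD1d-KO samples (red) and the 4 WT samples (blue), with no averaging. CD1d-KO 1 to 3 sit near 0 for all 10 genes, CD1d-KO 4 approaches the lower WT samples, and WT 3 is highest in 10 of 10.

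Among the secreted products of pit cells, Gkn1, gastrokine 1, a small secreted protein of the gastric surface, spans bases 87345653 to 87350915 of chromosome 6 on the minus strand. It had 1, 0, 0 and 96 counts in CD1d-KO 1 to 4 and 304, 296, 2717 and 1268 in WT 1 to 4. WT 3 and WT 4 were high, CD1d-KO 4 alone among CD1d-KO was clearly above 0, and the genotypes did not overlap. The mean normalised count was 23.3 ± 45.9 in CD1d-KO and 1198 ± 1123 in WT (SD, n = 4 each), with a fitted log2 fold change of -5.69 ± 2.04 (SE).

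Gkn2, gastrokine 2, which binds Tff1 in gastric mucus, lies next to Gkn1 on the opposite strand (bases 87373365 to 87379494). It had 0, 1, 0 and 201 counts in CD1d-KO 1 to 4 and 462, 476, 3971 and 2074 in WT 1 to 4. The order of the samples was close to that of Gkn1, again with no overlap of the genotypes. Normalised counts averaged 48.5 ± 96.3 in CD1d-KO and 1834 ± 1658 in WT (SD, n = 4 each), and the log2 fold change was -5.24 ± 2.19 (SE).

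Tff1, trefoil factor 1, lies on chromosome 17 (bases 31161396 to 31165053, minus strand). It had 0, 0, 0 and 9 counts in CD1d-KO 1 to 4 and 12, 26, 157 and 62 in WT 1 to 4. CD1d-KO 4 was just under WT 1, so the gap between the genotypes was small beside the spread within WT. The log2 fold change was -4.95 ± 1.73 (SE). Part of a Tff1 exon is shared with an exon of LOC102631757 on the other strand, and counting did not use strand, so the count of Tff1 is uncertain.

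Muc5ac, the gel-forming mucin of pit cells, lies on chromosome 7 (bases 141788968 to 141819227, plus strand). It had 0, 0, 0 and 20 counts in CD1d-KO 1 to 4 and 11, 86, 2424 and 687 in WT 1 to 4. Here the genotypes overlapped, since CD1d-KO 4 was above WT 1. Normalised Muc5ac differed 218-fold between the highest and the lowest WT sample, against 7.71-fold for Ctse and 23.7-fold for Psca, the ends of the range for the other members with reads in every WT sample. The log2 fold change of Muc5ac, -7.42 ± 2.35 (SE), was the lowest of the members. It was -6.03 without WT 3 and -12.21 without CD1d-KO 4.

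Ctse encodes cathepsin E, an aspartic protease of gastric surface cells, on chromosome 1 (bases 131638314 to 131675507, plus strand). It had 3, 2, 4 and 91 counts in CD1d-KO 1 to 4 and 194, 149, 1242 and 414 in WT 1 to 4. It was one of 2 members, with Vsig1, that had reads in all 8 samples. The genotypes did not overlap, and mean normalised counts were 24 ± 42.3 in CD1d-KO and 514.2 ± 486.2 in WT (SD, n = 4 each; log2 fold change -4.42 ± 1.32 SE).

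Of the surface and junction genes, Cldn18, a tight junction claudin of stomach and lung (chromosome 9, bases 99690797 to 99717267, minus strand), had 1, 0, 0 and 18 counts in CD1d-KO 1 to 4 and 38, 37, 495 and 158 in WT 1 to 4. Vsig1, a junctional immunoglobulin-domain protein of the stomach (chromosome X, bases 140907608 to 140939472, plus strand), had 3, 2, 2 and 16 counts in CD1d-KO 1 to 4 and 36, 20, 277 and 92 in WT 1 to 4. CD1d-KO 4 lay closest to WT 2 in Vsig1, and both genes were without overlap of the genotypes. Psca, a lipid-anchored surface protein of stomach and prostate (chromosome 15, bases 74714839 to 74717065, plus strand), had 0, 0, 0 and 2 counts in CD1d-KO 1 to 4 and 5, 17, 120 and 60 in WT 1 to 4. The log2 fold changes were -5.37 ± 1.69 for Cldn18, -4.32 ± 1.05 for Vsig1 and -6.80 ± 1.6 for Psca (SE). In Psca, CD1d-KO 4 had fewer reads than the 3 counts that a count of 0 allows.

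Anxa10, a member of the calcium-binding annexins that is prominent in gastric epithelium (chromosome 8, bases 62057042 to 62123193, minus strand), had 1, 0, 2 and 17 counts in CD1d-KO 1 to 4 and 43, 40, 400 and 177 in WT 1 to 4. The genotypes did not overlap, and the log2 fold change was -5.17 ± 1.34 (SE). Sox2 (chromosome 3, bases 34649995 to 34652460, plus strand) had 0 counts in each CD1d-KO sample and 2, 0, 22 and 2 in WT 1 to 4. Its WT reads came almost wholly from WT 3, and WT 2 overlapped with CD1d-KO. With CD1d-KO set to 3 counts in each library, the mean normalised level of Sox2 in WT was 2.27 times that of CD1d-KO. This ratio rests on WT 3, since WT 1, WT 2 and WT 4 (normalised 1.96, 0 and 2.45) were under the CD1d-KO mean so set, 2.84. Sox2 lies within Sox2ot, a longer transcript that had at most 3 counts in a sample and shares no exon base with it.

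Normalised counts of every CD1d-KO sample were under those of every WT sample for 8 of the 10 members, and this held for 5.52% of the 15446 genes tested. By DESeq2 at an adjusted p under 0.05, 6 of the 10 members passed, all lower in CD1d-KO, against 2.38% of all genes tested that passed in that direction and 4.03% in either. By edgeR's quasi-likelihood test, which left out Psca and Sox2 for low counts, 8 of 8 passed, against 1.07% of genes that passed as lower. Since the members were picked from this contrast, nothing is read from these counts. The median log2 fold change was -5.23 over the members and 0.00 over all genes tested. The number passing by DESeq2 rested on single samples, being 9 without CD1d-KO 4, 3 without CD1d-KO 1, CD1d-KO 2 or WT 1, and 2 without WT 3 or WT 4. It was 1, Psca, when both samples with Y-linked counts were left out. All 10 members remained lower in CD1d-KO in each of these fits, which reuse the samples they were picked from.

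**Figure D2:**
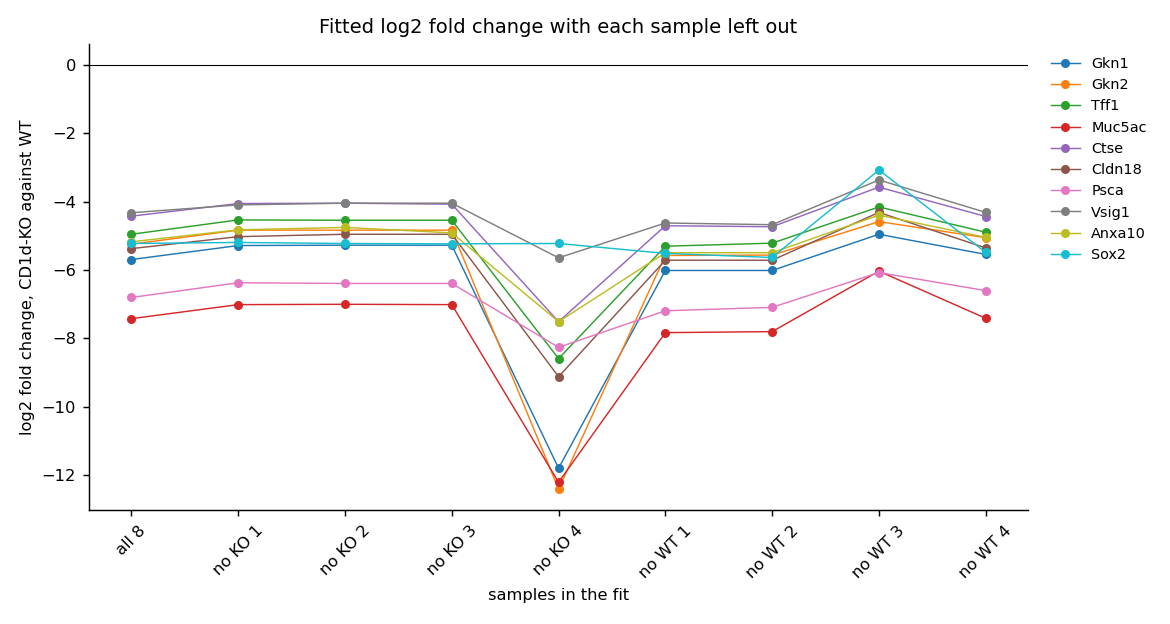
Each line is 1 member and each point its DESeq2 log2 fold change (CD1d-KO against WT), with all 8 samples at the left and then with 1 sample left out at a time. Values lie between -12.41 and -3.07. Leaving out CD1d-KO 4 moves Gkn1 from -5.69 to -11.80, and the values without WT 3 are nearer to 0.

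In CPM per kilobase of exon (RPKM), the members' WT levels were ordered Gkn2 (81.9 ± 73.8), Gkn1 (34.1 ± 31.8), Ctse (8.42 ± 7.93), Tff1 (4.84 ± 4.57), Anxa10 (3.21 ± 3.08), Muc5ac (2.65 ± 3.50), Psca (2.15 ± 2.09), Cldn18 (2.08 ± 2.31), Vsig1 (1.32 ± 1.37) and Sox2 (0.0906 ± 0.14; mean RPKM ± SD, n = 4). The order was not the same in each sample, since Muc5ac was in place 9 in WT 1, 8 in WT 2, 5 in WT 3 and 7 in WT 4, while Gkn2, Gkn1, Ctse and Tff1 kept places 1 to 4. For every neighbouring pair in the order of the means the difference of the means was smaller than the larger SD. The spread is mostly shared between genes, because WT 3 was highest and WT 4 the next highest for all 10. In Sox2, however, WT 1 and WT 4 had 2 counts each and were ordered only by scaling.

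The correlation among members was computed on log2 of the normalised count plus 1 and is given as a description, since the samples fall into clusters and the members were chosen together. Over 8 samples the 45 pairs had a median Pearson r of 0.97 (Spearman rho 0.95), from 0.68 for Sox2 with Gkn2 to 0.99 for Ctse with Gkn1. CD1d-KO 1 to 3 lie together near 0. With each genotype's mean taken off, the median r was 0.90 (rho 0.74), from 0.32 for Sox2 with Gkn2 to 0.98 for Psca with Muc5ac. Without CD1d-KO 2 and WT 3, the 2 samples farthest from the median of the members' mean level, the 36 pairs that leave out Sox2 had a median r of 0.97 (rho 0.93, 6 samples). All points share the 8 libraries.

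Ratios between members within a sample show which genes moved in step. They could be taken in CD1d-KO 4 and in WT 1 to 4, since Gkn1 had at most 1 count in the other samples. Anxa10 stayed at 0.177, 0.141, 0.135, 0.147 and 0.14 counts per Gkn1 count in these 5 samples, and all exact 95% intervals overlapped. Gkn2 had 2.09, 1.52, 1.61, 1.46 and 1.64 counts per Gkn1 count, with an interval of 1.63 to 2.7 in CD1d-KO 4 that did not overlap that of WT 3, 1.39 to 1.54. These genes kept nearly fixed proportions while Gkn1 itself differed by more than an order of magnitude.

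Muc5ac did not keep step. It had 0.208 counts per Gkn1 count in CD1d-KO 4 and 0.0362, 0.291, 0.892 and 0.542 in WT 1 to 4. The interval of WT 1, 0.0179 to 0.0657, did not overlap that of any of the other 4 samples, so WT 1 had little Muc5ac for its gastrokine reads and WT 3 the most. Muc5ac made up 0.994% of the summed member counts in WT 1 (95% interval 0.497 to 1.77%) and 20.5% in WT 3 (19.8 to 21.2%). Ctse went the other way, with 0.948 counts per Gkn1 count in CD1d-KO 4 and 0.638, 0.503, 0.457 and 0.326 in WT 1 to 4. Its share of member counts was 19.4% in CD1d-KO 4 and 8.29% in WT 4. These intervals cover counting error only.

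**Figure D3:**
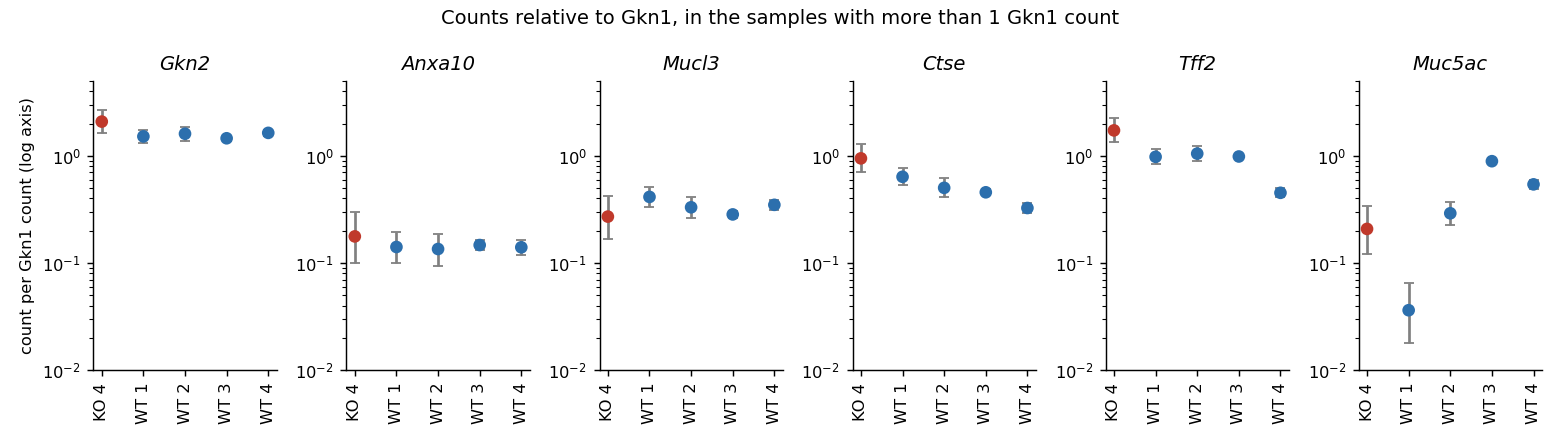
Points are the counts of each gene per Gkn1 count in CD1d-KO 4 (red) and WT 1 to 4 (blue) on a log axis, and bars are exact 95% binomial intervals. Anxa10 is level between 0.135 and 0.177, while Muc5ac runs from 0.0362 in WT 1 to 0.892 in WT 3.

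Several members have close relatives beside them in the genome, and the relatives did not share one pattern. Gkn3, which in the stomach is a gastrokine of mucous neck cells, lies beside Gkn2. Which cells of this intestinal preparation carry its reads was not tested. Gkn3 had 1012, 864, 534 and 710 counts in CD1d-KO 1 to 4 and 726, 580, 1264 and 460 in WT 1 to 4. Its genotypes overlapped fully (log2 fold change -0.08 ± 0.31 SE, DESeq2 adjusted p = 0.957, edgeR adjusted p = 0.901). Tff1, Tff2 and Tff3 lie within 39.7 kb of chromosome 17. Tff2, of neck cells and Brunner's glands, had 0, 3, 31 and 166 counts in CD1d-KO 1 to 4 and 298, 312, 2681 and 573 in WT 1 to 4. No overlap was seen in Tff2, yet its log2 fold change of -4.35 ± 1.59 (SE) did not pass (DESeq2 adjusted p = 0.103, edgeR adjusted p = 0.0543). Unlike the members, Tff2 had 31 counts in CD1d-KO 3.

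Tff3, the goblet cell trefoil peptide, had 6284 to 12384 counts in CD1d-KO and 6313 to 14316 in WT (log2 fold change -0.08 ± 0.29 SE, DESeq2 adjusted p = 0.958). On chromosome 7, Muc6, Muc2, Muc5ac and Muc5b lie within 239.6 kb. Muc6, the mucin of neck cells and Brunner's glands, had 245, 215, 142 and 231 counts in CD1d-KO 1 to 4 and 493, 393, 1345 and 287 in WT 1 to 4. Muc6 fell in CD1d-KO with no overlap (log2 fold change -1.70 ± 0.47 SE, DESeq2 adjusted p = 0.0137, edgeR adjusted p = 0.0471). Muc2, the goblet cell mucin, overlapped between the genotypes (log2 fold change -0.11 ± 0.16 SE, DESeq2 adjusted p = 0.851). Muc5b had at most 1 count in a sample.

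**Figure D4:**
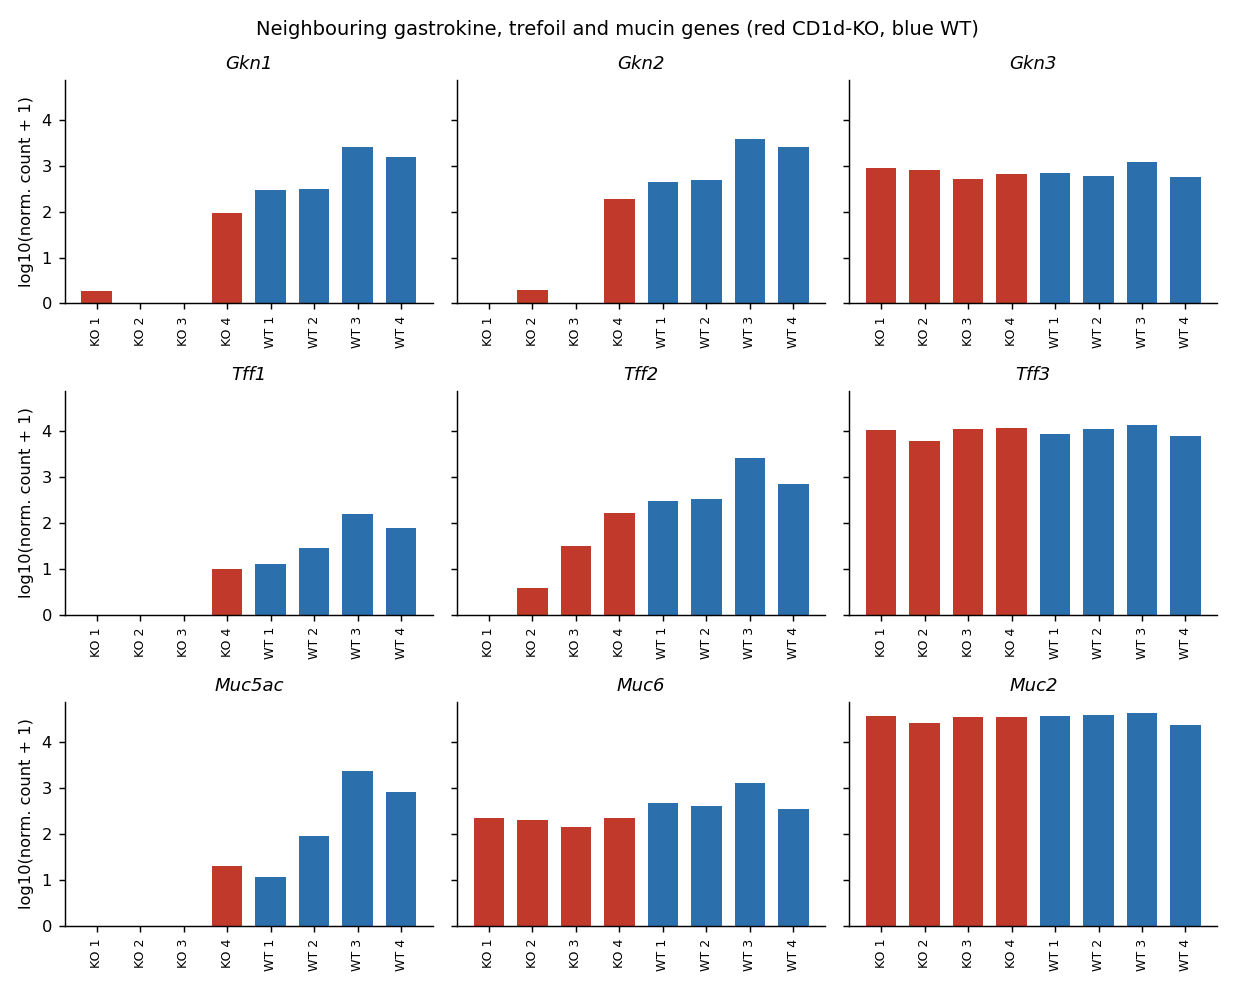
Bars are normalised counts per sample, as log10 of the count plus 1, for the gastrokine genes (top), trefoil genes (middle) and mucin genes (bottom) that lie in clusters, with CD1d-KO in red and WT in blue. Gkn3, Tff3 and Muc2 are read in all 8 samples in overlapping ranges, whereas Gkn1, Gkn2, Tff1 and Muc5ac are near 0 in CD1d-KO 1 to 3.

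Of 11 other genes listed for the gastric surface, 2 fell in CD1d-KO by DESeq2 and 0 rose. They were Muc1, a membrane mucin, and Fut2, which adds fucose to secreted mucins. Muc1 had 3, 6, 3 and 15 counts in CD1d-KO 1 to 4 and 54, 29, 130 and 45 in WT 1 to 4. No WT sample of Muc1 overlapped CD1d-KO (log2 fold change -3.37 ± 0.55 SE, DESeq2 adjusted p = 2.42e-07, edgeR adjusted p = 0.0127). Fut2 had 80, 54, 138 and 149 counts in CD1d-KO 1 to 4 and 206, 194, 358 and 133 in WT 1 to 4 (log2 fold change -1.19 ± 0.31 SE, DESeq2 adjusted p = 0.00566, edgeR adjusted p = 0.0968). After normalisation, CD1d-KO 4 at 143.1 was under WT 4 at 162.6, the nearest samples. The median log2 fold change of the 11 was -0.11. For this list and those below, the shares over all genes tested are the background. By DESeq2 2.38% passed as lower and 4.03% in either direction, and by edgeR 1.07% passed as lower. In 5.52% every CD1d-KO sample was under every WT sample. The lists were chosen with earlier results of these data known. The other genes of the list that intestinal epithelium also makes, among them Krt20, Capn8, Capn9 and Tspan1, were read in all samples and did not pass. Leaving out CD1d-KO 1, WT 1, WT 3 or both samples with Y-linked counts left 1 gene of this list.

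Mucl3, a mucin-like gene on the same list, did not pass by DESeq2 (adjusted p = 0.0719) but did by edgeR (adjusted p = 0.0127). It had 0, 0, 0 and 26 counts in CD1d-KO 1 to 4 and 126, 98, 771 and 443 in WT 1 to 4. By Pearson r across the samples it was the gene most like the members, among 13686 others whose normalised counts averaged 10 or more. Its Pearson r with the members' mean log2 level was 0.990 over 8 samples. The next were Rmc1 (r = 0.982), Sptssb (0.967), Muc1 (0.966), Psg25 (0.959), Pde4a (0.957), Pdlim7 (0.955) and Ubac1 (0.953). A high r is not likeness in size. The mean WT level was 60.7 times the CD1d-KO level for Mucl3, 10.3 times for Muc1, 6.37 times for Sptssb and 2.05 times for Psg25, but 1.09 times for Rmc1 and 1.11 times for Ubac1. When each genotype's mean was taken off, 1 of the 8, Mucl3, was again among the highest 8.

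Of 15 genes listed for gastric glands, 8 could be tested by DESeq2, of which 1, Muc6, fell and 1 rose. The one that rose was Atp4a, the proton pump subunit of parietal cells, with 52, 46, 53 and 36 counts in CD1d-KO 1 to 4 and 19, 21, 22 and 26 in WT 1 to 4. It went against the direction of the members, without overlap (log2 fold change 0.93 ± 0.30 SE, DESeq2 adjusted p = 0.0477, edgeR adjusted p = 0.0908). Atp4b and Kcne2, also of parietal cells, had at most 3 counts in a sample, so Atp4a alone does not mark these cells. The median log2 fold change of the 8 tested genes was -0.61. Pgc, pepsinogen C, had 93, 97, 82 and 200 counts in CD1d-KO 1 to 4 and 200, 127, 1340 and 163 in WT 1 to 4. The genotypes of Pgc overlapped, and only WT 3 was far above CD1d-KO 4. Cook's rule for outlying counts left Pgc without a p by DESeq2, and by edgeR it did not pass (adjusted p = 0.166). At or under 3 counts in all 8 samples were 6 of the 15. The number passing ran from 0 without CD1d-KO 2 or CD1d-KO 3 to 4 without CD1d-KO 4. It was 1 without CD1d-KO 1 or WT 3 and 0 without both samples with Y-linked counts. Gast, the gastrin of antral G cells, had 1, 4, 2 and 6 counts in CD1d-KO 1 to 4 and 6, 45, 230 and 18 in WT 1 to 4, a log2 fold change of -4.59 ± 1.15 (SE) at an adjusted p of 0.00408 by DESeq2. It was the only one of 3 tested genes of gastric endocrine cells to pass, and edgeR left it out for low counts. WT 3 was again the highest sample, and CD1d-KO 4 and WT 1 were level at 6 counts.

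Of 9 other regulators of foregut epithelium that could be tested, 0 passed by DESeq2 or edgeR, with 1 at an unadjusted p under 0.05. Those with the lowest p were Gata6 (DESeq2 log2 fold change 0.14 ± 0.06 SE at an adjusted p of 0.228) and Pdx1, a factor of antrum, duodenum and pancreas (log2 fold change -0.41 ± 0.21 SE, DESeq2 adjusted p = 0.335). Of 16 genes of intestinal epithelium, 0 passed by either tool, with 3 at an unadjusted p under 0.05, and the genes with the lowest p were Isx (log2 fold change 0.27 ± 0.09 SE) and Hnf4g (0.24 ± 0.11 SE). Cdx2, which specifies intestinal epithelium, had 7494 to 8429 counts in CD1d-KO and 6481 to 8311 in WT. Epcam, the sort marker, had 56392 to 61188 and 43027 to 54729, Vil1 40618 to 47047 and 32902 to 48942, Cdh17 45981 to 49577 and 34435 to 47433, and Fabp1 9477 to 20503 and 5245 to 10613. The 16 genes summed to 18272 to 19946 CPM in CD1d-KO and 16943 to 17963 in WT. The labelled tissue's markers were thus present in every sample, at a summed level far above the members' 397 CPM at most.

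Among markers of other cells, those of squamous forestomach, exocrine pancreas, stroma, endothelium and red cells were at low levels. Gastric gland and endocrine genes are given above and leukocyte genes below. Genes of the squamous forestomach summed to 5.42 to 6.67 CPM in CD1d-KO and 3.9 to 6.38 in WT. Krt5 was at 0 in all samples, Krt13 had at most 3 counts, and 0 of 3 tested genes passed by DESeq2 or edgeR, with 1 at an unadjusted p under 0.05 (those with the lowest p were Krt15, log2 fold change 0.74 ± 0.27, and Krt4, 0.85 ± 0.48 SE). Of 10 exocrine pancreas genes, 9 had at most 3 counts in every sample and the highest count was 4. The 13 genes of stroma, endothelium and red cells summed to 2.02 to 3.13 CPM in CD1d-KO and 1.96 to 3.52 in WT, with Col1a1 at 0 to 4 counts and Pecam1 at 6 to 30. Of the 4 that could be tested, 0 passed by DESeq2, 0 of 2 by edgeR, and 0 had an unadjusted p under 0.05. Those with the lowest p were the smooth muscle genes Acta2 and Myh11, at no more than 8 counts in a sample.

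Leukocyte-associated genes were lower in sum in CD1d-KO. The sum was 36.8, 42, 110 and 102 CPM in CD1d-KO 1 to 4 and 235, 159, 160 and 188 in WT 1 to 4, without overlap. Much of it was H2-Ab1, an MHC class II gene that intestinal epithelial cells can also express, with 109, 363, 2477 and 2157 counts in CD1d-KO 1 to 4 and 4755, 3121, 3592 and 3628 in WT 1 to 4 (log2 fold change -1.68 ± 0.89 SE, DESeq2 adjusted p = 0.358). Without H2-Ab1, left out after its values were seen, the sum was 26.9 to 33.4 CPM in CD1d-KO and 34.7 to 69.4 in WT. Most of this remainder was a single gene, Itgam, so it does not measure leukocyte content broadly. Itgam had 948, 806, 694 and 770 counts in CD1d-KO 1 to 4 and 1191, 982, 999 and 690 in WT 1 to 4. Its log2 fold change was -0.40 ± 0.11 (SE, DESeq2 adjusted p = 0.0127, edgeR adjusted p = 0.0773). By DESeq2, 3 of 11 tested fell in CD1d-KO (Jchain, Itgam and Cd8a), and by edgeR 0 of 7. Jchain, of plasma cells, had 2, 8, 2 and 17 counts in CD1d-KO 1 to 4 and 464, 95, 21 and 30 in WT 1 to 4 (log2 fold change -4.47 ± 1.14 SE, DESeq2 adjusted p = 0.00552). Ptprc, the pan-leukocyte CD45 gene, had 39 to 90 counts in CD1d-KO and 57 to 121 in WT, and Cd3e of T cells 2 to 7 and 0 to 46. The leukocyte sum was highest in WT 1 and the members' sum in WT 3. Whether cells of another region or type have a part in the members' difference was not tested, and the 2 experiments cannot be told apart from the spread within each genotype. Among 11 genes induced by tissue dissociation 0 passed by DESeq2 or edgeR and 0 had an unadjusted p under 0.05, those with the lowest p being Atf3 (log2 fold change -0.30 ± 0.18 SE) and Junb (-0.20 ± 0.15 SE).

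Other claudins and mucins showed whether the members' families moved as a whole. Of 9 claudins other than Cldn18, 0 passed by DESeq2 or edgeR, with 1 at an unadjusted p under 0.05, and those with the lowest p were Cldn8 (log2 fold change 0.38 ± 0.16 SE) and Cldn23 (-0.10 ± 0.10 SE). Among 8 tested trefoil and mucin genes other than Tff1 and Muc5ac, 3 fell and 0 rose, namely Muc1 and Muc6 above and Muc13, a membrane mucin of intestinal epithelium. Muc13 had 43539, 42758, 41379 and 43187 counts in CD1d-KO 1 to 4 and 57665, 51777, 54876 and 39861 in WT 1 to 4. After normalisation the genotypes of Muc13 did not overlap, with a spread within each far smaller than that of the members (log2 fold change -0.40 ± 0.06 SE, DESeq2 adjusted p = 8.44e-09, edgeR adjusted p = 0.00857).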

How the data were processed

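RNA from sorted epithelial cells of the proximal small intestine was sequenced for 4 CD1d-KO and 4 WT samples, grouped by the genotype label. The labels do not say which mouse or experiment a sample came from, so p-values measure the spread between these samples. The authors deposited raw fragment counts per gene, with no normalization, made with featureCounts 1.6.4 per the file headers (read pairs, exons grouped by gene, primary alignments, strand not used). The header names an mm10 annotation, whereas the methods name HISAT2 alignment to GRCm39. Coordinates are as deposited. Sequences came from RefSeq (GRCm38.p6), and exon length, used for RPKM, from the deposited table.

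The genotypes were compared on these counts in R 4.3.3 with DESeq2 1.42.0, which the study used, with no term but genotype and Benjamini-Hochberg adjustment over 15446 genes, calling an adjusted p under 0.05. Independent filtering left 3638 genes without an adjusted p. edgeR 4.0.16 (quasi-likelihood) was the alternative. On simulated counts DESeq2 made more false calls than its nominal rate at this sample number while edgeR stayed near it, so edgeR values stand beside DESeq2 values. A limit on DESeq2's share of false calls, set in the first version of that test, was exceeded and was replaced by one on edgeR alone. Other alternatives were TMM factors, a minimum of 10 counts in 4 samples, no filtering, a replicate block, and samples left out. Named were the members, Cd1d1, the 8 genes most like the members, per list up to 6 called genes or the 2 with the lowest p, and fixed markers. Lists held genes known for gastric surface, glands and endocrine cells, foregut regulators, intestinal epithelium, other cell types and dissociation, and 1 gene of the leukocyte list is not reported here. Tff3, Muc2 and Muc5b were named for their position after their values were seen. Members, lists and tests were chosen with earlier results of these data known.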

Additional observations from a re-analysis of the deposited data

Results flagged for a closer look

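With 4 samples in a group, a sample was singled out when its gap to the nearest other, divided by the group's range, was above Dixon's 95% critical value. The rule was applied to the members, their summed CPM, Cd1d1, Mucl3, Muc1, Fut2, Muc6, Gast, Tff2, Gkn3 and Atp4a. Other genes, Pgc among them, were not screened. For normally distributed values chance singles out about 1 group in 20. The values here were not log-transformed, so that rate need not hold, and the genes below share their samples. In Tff1, Muc5ac, Psca and Mucl3, CD1d-KO 1 to 3 were all at 0. There any count in CD1d-KO 4 gives a gap of 1, whatever its size. CD1d-KO 4 was singled out above the other CD1d-KO samples in Gkn1 (gap 0.990 of the range), Gkn2 (0.995), Tff1 (1), Muc5ac (1), Cldn18 (0.948), Ctse (0.977), Anxa10 (0.880), Psca (1, on 2 counts) and Vsig1 (0.942). The same sample stood apart in Mucl3 (1) and in the summed member CPM (0.992). WT 3 was far above the other WT samples in Sox2 (0.885) and Muc6 (0.860).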

How the results depend on the processing

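The members were picked as lower in CD1d-KO in these same samples, so their direction in refits is a description only. All 10 were lower in CD1d-KO in every alternative that gave a value, with log2 fold changes from -12.41 to -3.07. Of 136 such values, 7 had no adjusted p (5 of Sox2, and Cldn18 and Anxa10 without WT 4). Of the other 129, 92 kept their side of the threshold, 27 were no longer past it and 10 newly passed. The genes called numbered 622 by DESeq2, 228 by edgeR and 372 without both samples with Y-linked counts, and from 323 to 646 when each sample was left out. The members called numbered 1 without the samples with Y-linked counts and from 2 to 9 when each sample was left out. The other gastric surface genes called numbered 1 and from 1 to 3 in the same settings. The gastric gland genes called numbered 1 by edgeR, 1 with no filtering, 1 with the replicate block, 0 without the samples with Y-linked counts and from 0 to 4 when each sample was left out. Of the 8 genes most like the members, 1 was shared once values were centred within genotype and 6 at a minimum mean of 50. The cause of these changes was not tested. With the replicate block, 569 genes and 9 of 9 tested members were called, but deviations of samples with the same number correlated at 0.341, -0.0799, 0.265 and -0.0888, so the numbers do not pair the samples. In simulated counts DESeq2 exceeded its nominal share of false calls and edgeR did not. Depth limits Sox2 and Psca, whose CD1d-KO counts were at or under 3.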
